A study of Mus musculus with 8 samples.

Results

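The miR-200 family was followed through the mouse mammary gland at puberty, in the terminal end buds (TEBs), the mature ducts and the stroma. Its members are mmu-miR-200b, mmu-miR-200a, mmu-miR-429, mmu-miR-200c and mmu-miR-141. They were taken by their names on the array and made up 5 of the 611 mouse miRNAs measured. The rule that chose them used their names and no signal.

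All tissue came from female 5-week-old FVB/n mice carrying a beta-actin GFP reporter, whose fluorescence let the ductal tree be seen and cut out of the gland. The study compared 3 TEB arrays, 2 arrays of mature ducts and 3 arrays of stroma taken away from the epithelium. Total RNA was labelled with Cy3 and each sample was hybridised to a single-colour Agilent mouse miRNA array. The labels do not say whether the arrays of a tissue came from different animals, so the p-values below measure the spread between these samples, which may be technical. In such bulk tissue, fewer cells of a type and less RNA per cell cannot be told apart.

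TEBs are the club-shaped growing tips that drive the ductal tree through the fat pad during puberty, and the ducts are the tubes they leave behind. The miR-200 family is known as a marker of epithelial cells. Its members repress Zeb1 and Zeb2, transcription factors that silence E-cadherin, and Zeb1 and Zeb2 repress the family in turn, a loop that is known for its part in the transition between epithelial and mesenchymal states. A miRNA finds its targets mainly through its seed, the short stretch near its 5′ end, so that members with the same seed share most predicted targets. The members are processed from a pair of primary transcripts made at separate loci, and miRNAs cut from the same transcript often change together.

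The mature sequences are shown because the 5 members fall into 2 groups by seed and into 2 groups by genomic cluster, and the groupings cross. All 5 names were matched to the 3p arm of a RefSeq hairpin (GRCm38.p6). The seed, bases 2 to 8 counted from the 5′ end, is in capitals.
mmu-miR-200b: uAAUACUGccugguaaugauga
mmu-miR-200c: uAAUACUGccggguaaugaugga
mmu-miR-429: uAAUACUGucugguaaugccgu
mmu-miR-200a: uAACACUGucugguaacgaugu
mmu-miR-141: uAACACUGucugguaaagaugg

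The first 3 carry the seed AAUACUG, which no other mature miRNA among the 1738 in the RefSeq table had. The last 2 carry AACACUG, also found in no other. The seeds differ by a single base, written U4C from mmu-miR-200b to mmu-miR-200a. Outside the seed the members resemble each other closely. Over the 22 positions compared, mmu-miR-200a and mmu-miR-141 differ at 2 (C17A and U22G), mmu-miR-200b and mmu-miR-200c differ at 2 (U11G and A22G), and the other 8 pairs differ at 4 or 5. Whether probes for sequences this close share signal was not tested.

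The hairpins of mmu-miR-200b, mmu-miR-200a and mmu-miR-429 lie within 1846 bases at chr4:156053905-156055750 on the minus strand, inside the span of the lncRNA gene Gm13648, with Ttll10 and Gm52714 as the nearest other genes. The mature mmu-miR-200b lies at chr4:156055685-156055706, mmu-miR-200a at chr4:156054911-156054932 and mmu-miR-429 at chr4:156053916-156053937. The hairpins of mmu-miR-200c and mmu-miR-141 lie within 477 bases at chr6:124717914-124718390 on the minus strand, outside any other gene in the RefSeq table and between Phb2 and Ptpn6. The mature mmu-miR-200c lies at chr6:124718324-124718346 and mmu-miR-141 at chr6:124717917-124717938. Each cluster therefore holds both seeds: mmu-miR-200a is the only AACACUG member of the chromosome 4 cluster and mmu-miR-141 that of the chromosome 6 cluster.

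Signals are given in array units. The scanner software summed the probes of a miRNA and subtracted background, so that a signal near background can be negative. For each array the 75th percentile was then taken over the 108 miRNAs that all 8 arrays detected and brought to a common value, with factors of 0.750 to 1.36. Between 23.2% and 27.7% of the mouse miRNAs were detected on an array, and arrays of the same tissue correlated with r of 0.955 to 0.987 across the 167 miRNAs tested, which are not independent replicates. Scaled signals under 1 were set to 1 before log2 values were taken for limma, with Benjamini-Hochberg adjustment over those 167 miRNAs, each of which had to be detected throughout 1 or more of the tissues. The probes of different miRNAs differ in brightness, so members are compared only by how they change between tissues.

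The detection flag of all 5 members was set on each of the 5 epithelial arrays and on none of the 3 stroma arrays. The software's own error on these detected signals was 7.27% to 11.8% of the signal. A member passed the detection filter through its epithelial arrays alone, so that a difference from the stroma was built into the filter and the counts against stroma support nothing about the members.

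The scaled signal of mmu-miR-200c was 796 and 716 in ducts, 838, 806 and 820 in TEBs, and -19.5, -19.7 and -9.32 in stroma. The TEB arrays were all above the duct arrays, by less than the distance between the duct arrays. The duct mean was 756 ± 56.7 (SD, n = 2) and the TEB mean 821 ± 15.7 (SD, n = 3).

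For mmu-miR-141, its neighbour on chromosome 6, the scaled signal was 249 and 236 in ducts, 246, 298 and 287 in TEBs, and -16.1, -18.7 and -11.9 in stroma. TEB replicate 1 lay between the duct arrays and the other two lay above them. The duct mean was 242 ± 9.27 (SD, n = 2) and the TEB mean 277 ± 27.3 (SD, n = 3).

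The scaled signal of mmu-miR-200b, from the chromosome 4 cluster, was 607 and 527 in ducts, 510, 502 and 529 in TEBs, and -8.95, -6.14 and -2.57 in stroma. TEB replicate 3 lay just above the lower duct array, so that the groups overlapped. Ducts averaged 567 ± 56.5 (SD, n = 2) and TEBs 513 ± 13.9 (SD, n = 3).

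For mmu-miR-429 the scaled signal was 375 and 348 in ducts, 224, 338 and 294 in TEBs, and -0.028, 2.71 and 5.52 in stroma. All TEB arrays were below both duct arrays, and the TEB arrays varied more than for any other member, with a coefficient of variation of 20.2% against 1.91% to 11.3%. Ducts averaged 362 ± 19.0 (SD, n = 2) and TEBs 285 ± 57.6 (SD, n = 3).

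The scaled signal of mmu-miR-200a was 245 and 210 in ducts, 86.6, 70.5 and 73.0 in TEBs, and -11.7, -14.9 and -7.16 in stroma. The highest TEB array was well under the lowest duct array. Ducts averaged 228 ± 25.3 (SD, n = 2) and TEBs 76.7 ± 8.66 (SD, n = 3).

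**Figure D1:**
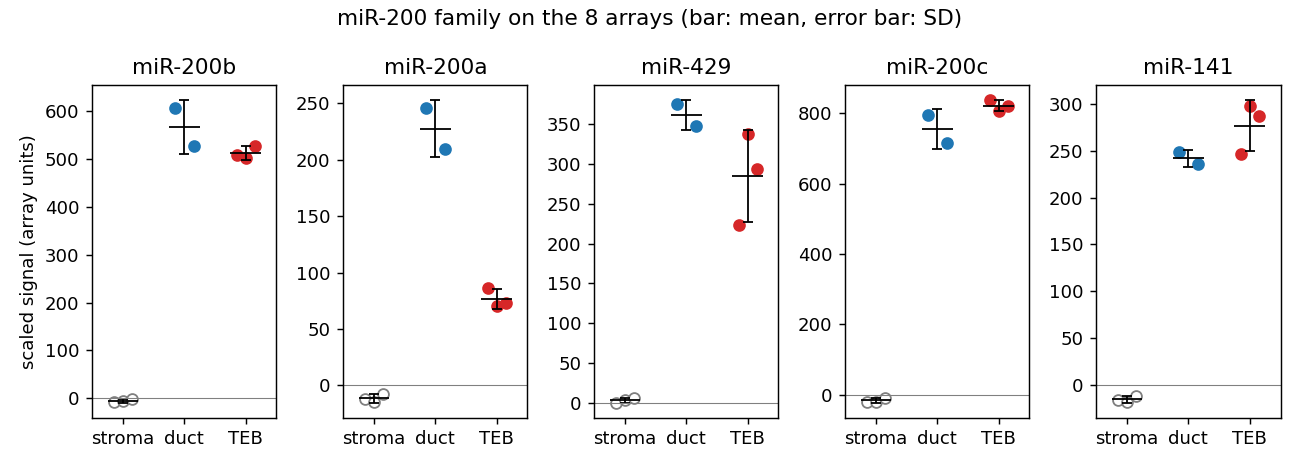
Scaled signal (array units, a separate linear axis for each member) of the 5 miR-200 family members on the 3 stroma, 2 duct and 3 TEB arrays. Points are arrays, open where the miRNA was not detected, bars are means and error bars are SD. All members lie near 0 in stroma, and mmu-miR-200a alone shows a wide gap between ducts (210 and 245) and TEBs (70.5 to 86.6).

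Between TEBs and ducts, mmu-miR-200a was the only member that passed the test at the scaling used here, being 2.97-fold lower in TEBs. Its log2 fold change was -1.57 (SE 0.125, 95% interval -1.87 to -1.27, limma adjusted p = 0.00037). Its rank among the 167 tested was 4 by p-value and 18 by fold change, counted from the lowest. With only the TEB and duct arrays in the fit the change was the same, with an SE of 0.147 and an adjusted p of 0.00695 by limma. The difference held on both rows of the slide, each of which carried TEB and duct arrays, at -1.65 on the first (2 TEB arrays, 1 duct array) and -1.52 on the second (1 TEB array, 1 duct array).

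Among 23 alternative settings, 2 ended this call. With 16 added in place of the floor the log2 fold change was -1.39, with an SE of 0.732 and a limma adjusted p of 0.186 in the fit to all arrays, and an SE of 0.128 and an adjusted p of 0.00647 with only TEB and duct arrays. Scaled to the 75th percentile of all 611 mouse miRNAs, the change in the fit to TEB and duct arrays was -1.02 (limma adjusted p = 0.0507).

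The other 4 members did not pass the test here, but mmu-miR-141 passed after quantile normalization (0.35, limma adjusted p = 0.0305) and in the authors' processed table (0.34, 0.0393), and mmu-miR-200b passed without scaling (-0.51, 0.0322) and without TEB replicate 1 (-0.35, 0.0495). At the scaling used here the log2 fold change, TEB over duct, was -0.14 for mmu-miR-200b (SE 0.095, 95% interval -0.37 to 0.09, limma adjusted p = 0.288) and 0.12 for mmu-miR-200c (SE 0.087, -0.09 to 0.33, adjusted p = 0.324). It was 0.19 for mmu-miR-141 (SE 0.108, -0.07 to 0.45, limma adjusted p = 0.209). For mmu-miR-429 it was -0.36 (SE 0.652, -1.93 to 1.20, limma adjusted p = 0.701). The stromal values of mmu-miR-429 were not all at the floor (SD 1.24 on the log2 scale) while those of the others were (SD 0), and they share in the estimate of its error. With only TEB and duct arrays its SE was 0.208 and its interval -0.92 to 0.20 (limma adjusted p = 0.253), while the intervals of the 3 other members widened to -0.43 to 0.15, -0.14 to 0.38 and -0.15 to 0.53, in the order given above. In this fit and at this scaling the intervals of all 4 lie within 1 log2 unit of 0, which does not show that the members were equal in both fractions.

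**Figure D2:**
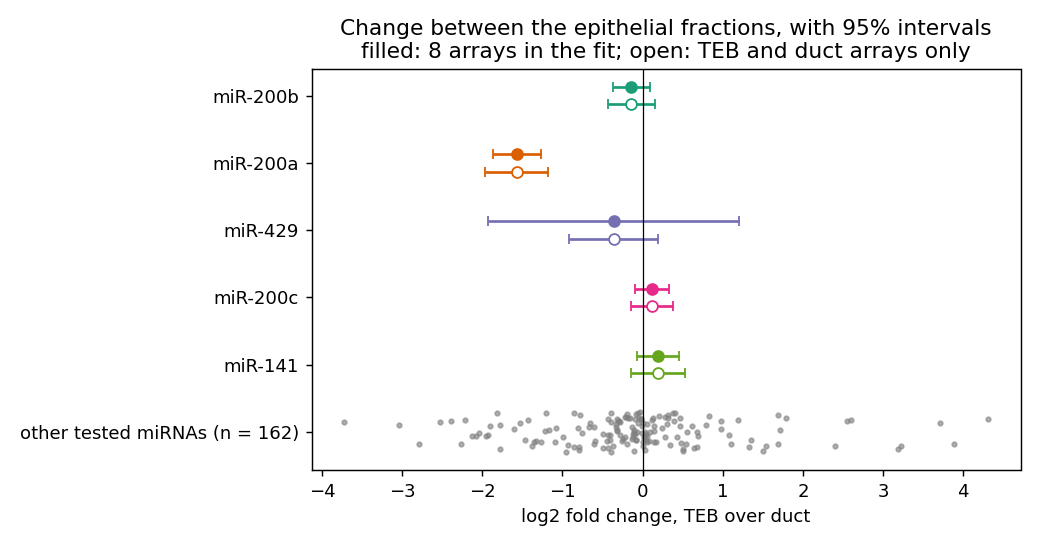
Log2 fold change, TEB over duct, of the 5 members (coloured, with 95% intervals) and of the other 162 tested miRNAs (grey points, one each, spread vertically for visibility only). Filled symbols are from the fit to all 8 arrays and open symbols from the fit to TEB and duct arrays alone. Only the intervals of mmu-miR-200a (-1.87 to -1.27 and -1.97 to -1.17) lie clear of 0, and the signs of the other 4 members turn under other scalings.

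As background, 41 of the 167 miRNAs tested (24.6%) passed in this comparison, of which 19 (11.4% of those tested) had the higher level in TEBs and 22 (13.2%) the lower, against 0 members higher and 1 of 5 lower. That background was unstable, with 5 miRNAs passing without TEB replicate 2, 10 without duct replicate 1 and 70 without TEB replicate 1. The median log2 fold change was -0.14 over the 5 members and -0.10 over all tested. How many miRNAs moved each way depended on the scaling, with 24 higher and 6 lower when scaled over all mouse miRNAs, 30 and 12 after quantile normalization, 32 and 18 in the authors' processed table, and 12 and 63 without scaling. The first of these scalings moved the median of all tested miRNAs up by 0.55, quantile normalization and the authors' table by 0.12 each, and leaving out the scaling moved it to -0.47.

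The signs of 4 members depended on the scaling. Scaled over all mouse miRNAs, the log2 fold changes of mmu-miR-200b and mmu-miR-429 turned to 0.41 and 0.19, and without scaling those of mmu-miR-200c and mmu-miR-141 turned to -0.24 and -0.17. The sign for mmu-miR-200a stayed negative under each scaling, from -1.94 to -1.02. In exact permutation tests over the arrays, two-sided, 3 TEB arrays against 2 duct arrays cannot go below p = 0.1, which mmu-miR-200a and mmu-miR-200c both reached.

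**Figure D3:**
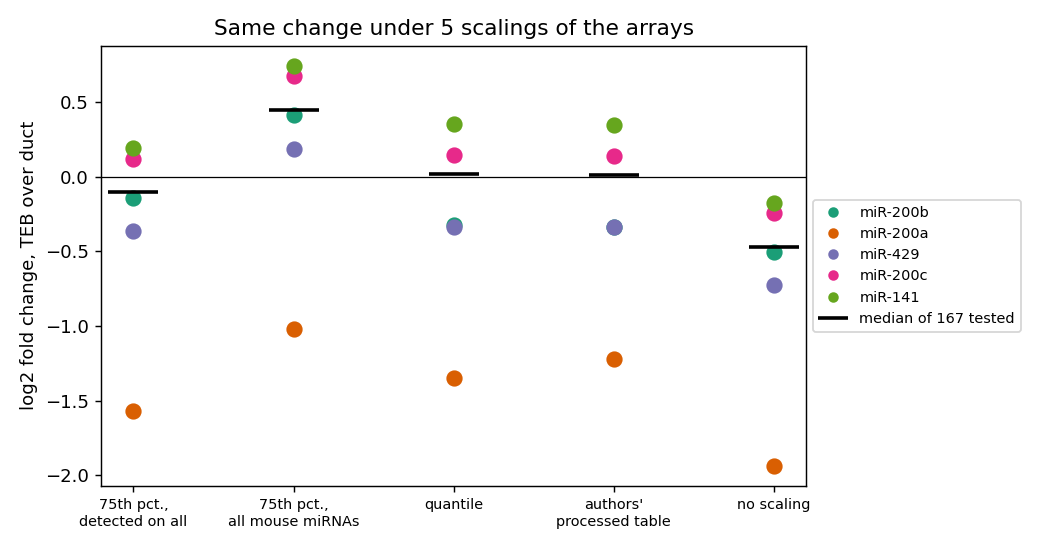
Log2 fold change, TEB over duct, of the 5 members (points) and the median of the 167 tested miRNAs (black bars) under 5 ways of scaling the arrays. The median runs from 0.45 at its highest to -0.47 at its lowest and 4 members change sign under at least 1 scaling, while mmu-miR-200a stays lowest throughout (-1.94 to -1.02).

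Differences between members within an array do not depend on its scale factor. The difference of mmu-miR-200a from mmu-miR-141, which carries the same seed and sits in the other cluster, was -0.02 and -0.17 log2 units in ducts and -1.51, -2.08 and -1.97 in TEBs. Every TEB array was lower than both duct arrays. The change was -1.76, a 3.39-fold shift between the AACACUG members, with -2.06 to -1.34 over the 6 pairs of a TEB and a duct array.

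The AAUACUG members of the clusters shifted far less. The difference of mmu-miR-200b from mmu-miR-200c was -0.39 and -0.44 log2 units in ducts and -0.72, -0.68 and -0.63 in TEBs. The groups did not overlap, and the change was -0.26. The difference of mmu-miR-429 from mmu-miR-200c changed by -0.48, again with no overlap. For pairs that differ in both cluster and seed, the changes were -1.69 (mmu-miR-200a from mmu-miR-200c), -0.55 (mmu-miR-429 from mmu-miR-141) and -0.33 (mmu-miR-200b from mmu-miR-141). None of these overlapped between the fractions.

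Within the chromosome 4 cluster, the members did not keep their ratio. The difference of mmu-miR-200b from mmu-miR-200a was 1.31 and 1.33 log2 units in ducts and 2.56, 2.83 and 2.86 in TEBs, a change of 1.43. The difference of mmu-miR-200a from mmu-miR-429 was -0.61 and -0.73 in ducts and -1.37, -2.26 and -2.01 in TEBs, a change of -1.21. In contrast the difference of mmu-miR-200b from mmu-miR-429 overlapped between the fractions and changed by 0.22.

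Within the chromosome 6 cluster, the difference of mmu-miR-200c from mmu-miR-141 was 1.68 and 1.60 log2 units in ducts and 1.77, 1.43 and 1.51 in TEBs. The groups overlapped, and the change was -0.07, the smallest of the 10 pairs. Of the 10 pairs, 8 did not overlap, all 4 with mmu-miR-200a and 4 of the other 6. The share of such pairs among all tested miRNAs was not computed, and the 10 pairs reuse the same members. These counts are therefore not read as a result about the members. By the exact permutation test, two-sided, 5 pairs reached the smallest p that 3 arrays against 2 can give, 0.1, and the lowest p adjusted over the 10 pairs was 0.2.

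Averaged by genomic cluster, the chromosome 4 members less the chromosome 6 members stood at -0.22 and -0.28 log2 units in ducts and at -1.08, -1.10 and -1.11 in TEBs. The change was -0.85 (a 1.80-fold shift), and was -0.87 on the first row of the slide and -0.83 on the second. Without mmu-miR-200a the cluster difference was 0.10 and 0.06 in ducts and -0.43, -0.25 and -0.30 in TEBs, a change of -0.41. The direction was the same with and without that member. Leaving out mmu-miR-200a, here and for the seeds below, was not planned in advance, and no other member was left out in turn. No p is given for these averages, because they are scores over chosen members.

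Averaged by seed, the AAUACUG members less the AACACUG members stood at 1.20 and 1.19 log2 units in ducts and at 1.65, 1.83 and 1.80 in TEBs, a change of 0.56. This change rested on mmu-miR-200a. Without it the difference was 1.19 and 1.11 in ducts and 0.89, 0.79 and 0.81 in TEBs, a change of -0.32 in the opposite direction.

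**Figure D4:**
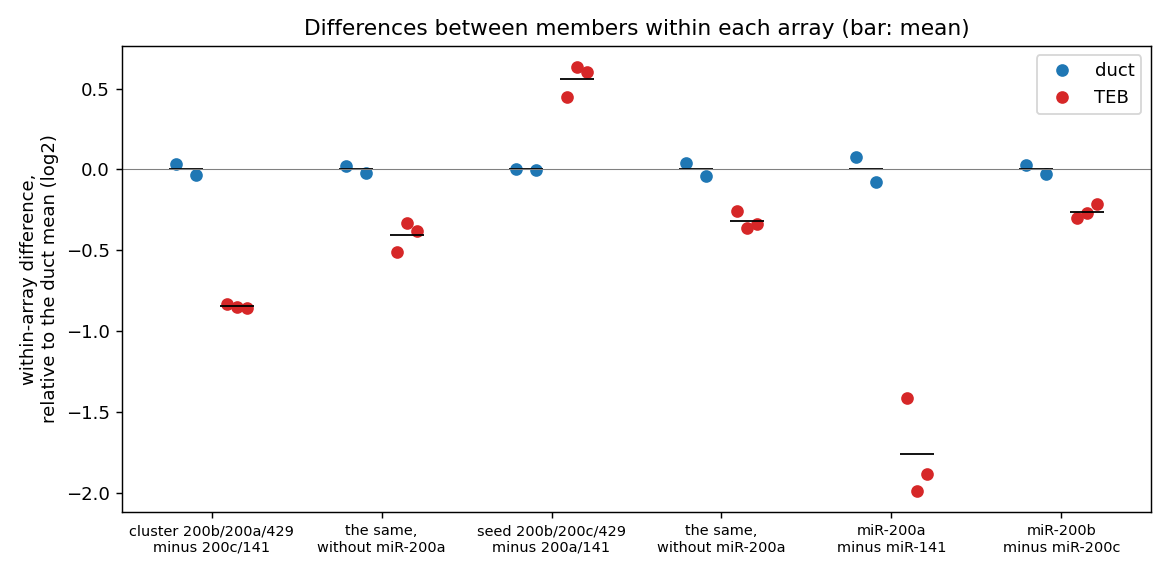
Differences between members within an array (log2), each set relative to its mean over the duct arrays, for the 2 duct and 3 TEB arrays. Points are arrays and bars are means. The cluster difference falls in TEBs with mmu-miR-200a (-0.85) and without it (-0.41), while the seed difference rises with it (0.56) and falls without it (-0.32).

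Against the stroma, every member was higher in both epithelial fractions. Since no member was detected in stroma, folds are nominal lower bounds. They were set per stroma array against the lowest scaled signal that was detected there (11.0, 11.9 and 3.18) or the member's own signal where higher. That level is not a detection limit for every probe, since mmu-miR-133b was at 25.2 on stroma replicate 2 and not flagged as detected. In TEBs over stroma, mmu-miR-200c was at least 110-fold higher, mmu-miR-200b at least 68.8-fold, mmu-miR-141 at least 37.1-fold, mmu-miR-429 at least 31.4-fold and mmu-miR-200a at least 10.2-fold. In ducts over stroma the bounds were at least 101-fold for mmu-miR-200c, 75.9-fold for mmu-miR-200b, 40.3-fold for mmu-miR-429, 32.5-fold for mmu-miR-141 and 30.4-fold for mmu-miR-200a. The bounds depend on how bright each probe is, so their order is not an order of change.

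The limma adjusted p against stroma was at most 0.000151 in TEBs and 0.000298 in ducts, both for mmu-miR-429. These p-values have the same limit as the counts, because the members passed the filter through their epithelial arrays alone. Except for mmu-miR-429, all stromal values of the members were also at the floor, without spread. All 5 members were called higher in TEBs than in stroma, where 64.7% of the 167 were called, 20.4% higher and 44.3% lower. All 5 were also called higher in ducts than in stroma, where 21.6% were called, 9.58% higher and 12.0% lower. In each of these comparisons the members had the 5 largest fitted increases of all miRNAs tested, on a scale where the stromal floor sets the size. With each member at its nominal lower bound, their median log2 fold change was 5.21 in TEBs over stroma and 5.33 in ducts over stroma. The fitted medians over all tested were -0.28 and -0.09. The comparisons share the stroma arrays.

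The share of the array signal taken by the family was computed from the unscaled signals of each array, as the sum of the 5 members over the summed positive signal of all 611 mouse miRNAs. It was 3.12% and 2.81% in ducts, 2.84%, 2.72% and 2.81% in TEBs, and 0%, 0.00329% and 0.0071% in stroma. The stromal shares above 0 came from mmu-miR-429 alone, which was not detected there. Its unscaled signals of 2.26 and 4.06 were below their software errors of 7.01 and 4.71. The duct and TEB arrays overlapped. The mean share of the ducts was 2.96% ± 0.219 (SD, n = 2) and that of the TEBs 2.79% ± 0.0617 (SD, n = 3). It is a share of brightness, not of molecules.

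The make-up of that share differed between the fractions. The part of mmu-miR-200a was 0.336% and 0.289% of the array signal in ducts and 0.129%, 0.0953% and 0.103% in TEBs. The part of mmu-miR-200c was 1.09% and 0.986% in ducts and 1.25%, 1.09% and 1.15% in TEBs. The part of mmu-miR-200a was lower on every TEB array than on either duct array, while that of mmu-miR-200c overlapped.

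**Figure D5:**
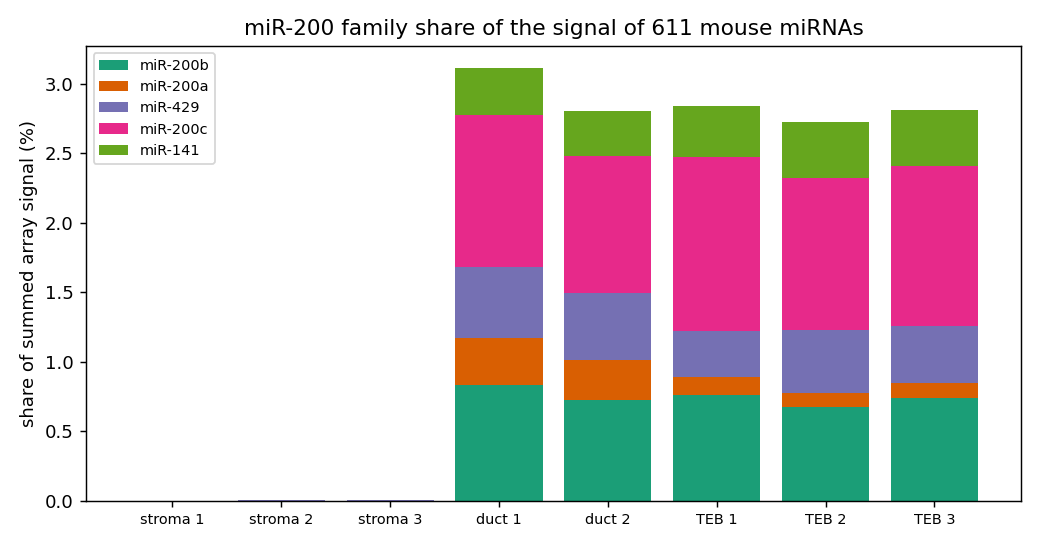
Share (%) of the summed positive signal of the 611 mouse miRNAs taken by each of the 5 members, stacked, on each of the 8 arrays. The duct (3.12% and 2.81%) and TEB arrays (2.72% to 2.84%) are of similar height and the stroma arrays are at most 0.0071%, and the mmu-miR-200a layer is thinner on the TEB arrays.

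The other strand of each hairpin, the star or 5p strand, is usually degraded after processing. The array carried probes for mmu-miR-200a*, mmu-miR-200b*, mmu-miR-200c* and mmu-miR-141*, and none of the 4 was detected on any array. Their highest scaled signal was 1.19, for mmu-miR-200a* on TEB replicate 1. The array had no row named mmu-miR-429*.

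Over the 8 arrays the log2 signals of the members correlated with each other at r of 0.972 (mmu-miR-200a with mmu-miR-429) to 0.9997 (mmu-miR-200b with mmu-miR-200c). These values describe mainly the gap between stroma and epithelium, which all members share. Among the 162 other miRNAs tested, the profile nearest to the mean of the family was that of mmu-miR-205 (r = 0.998 over 8 arrays), a miRNA of basal and stem-like epithelial cells. Its mean scaled signal was 40.9 in ducts and 41.1 in TEBs, it was not detected in stroma, and its log2 fold change between TEBs and ducts was 0.00 (limma adjusted p = 0.977).

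The next were mmu-miR-96 (r = 0.994) and mmu-miR-183 (r = 0.990), which are made from a single cluster. Both were undetected in stroma and higher in TEBs than in ducts, by 0.48 and 0.68 log2 units (limma adjusted p = 0.0466 and 0.0148). A further miRNA of that cluster, mmu-miR-182, was detected on no array. The remaining pair, mmu-miR-322 (r = 0.989) and mmu-miR-199a-5p (r = 0.945), were detected on all arrays and were lowest in stroma, with mean scaled signals of 667 and 100.1 there, 1056 and 165 in ducts, and 1035 and 162 in TEBs.

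The labelled tissues were set against marker miRNAs of the cell types that each could hold. Of 8 other epithelial miRNAs on the array, 5 were tested, and their summed scaled signal (negative signals taken as 0) was 0 to 11.1 in stroma, 169 to 174 in ducts and 166 to 203 in TEBs. None of these 8 was detected in stroma, and mmu-miR-203, mmu-miR-182 and mmu-miR-375 were detected on no array of any tissue. By the summed signal, the lowest TEB array was below both duct arrays and the highest above both. Of the 5, mmu-miR-31, mmu-miR-96 and mmu-miR-183 were called higher in TEBs and mmu-miR-184 was called lower. Over all tested miRNAs, 11.4% were called higher and 13.2% lower. The list was chosen with earlier results of these data known, so its calls are not independent of them. The scaled signal of mmu-miR-184 was 50.9 and 50.3 in ducts and 8.51, 6.55 and -0.221 in TEBs, where it was not detected (limma adjusted p = 0.0242). That of mmu-miR-31 was -10.1 and -1.29 in ducts, where it was not detected, and 15.3, 18.1 and 11.5 in TEBs (limma adjusted p = 4.84e-05). Both mmu-miR-184 and mmu-miR-31 passed the detection filter only through the fraction where they were higher. A difference between TEBs and ducts was thus built into the filter for them, and their p-values support nothing further.

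Markers of the other cell types were present in both epithelial fractions. The summed scaled signal of the fibroblast and smooth muscle list was 4318 to 4474 in stroma, 5195 to 5351 in ducts and 4275 to 5428 in TEBs. Of its 7 tested miRNAs, 0 were called higher in TEBs than in ducts and 2 were called lower, beside 11.4% and 13.2% of all tested. These were mmu-miR-143, at a log2 fold change of -0.61, and mmu-miR-10b, at -0.79 (limma adjusted p = 0.0274 and 0.0201). The median over the 7 was -0.26. The other way went mmu-miR-214, at 0.32 (limma adjusted p = 0.0657), with every TEB array above both duct arrays. All 7 were detected on every array, and mmu-miR-145 on none.

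For the endothelial marker mmu-miR-126-3p the signal was 2765 to 3863 in stroma, 1927 to 2061 in ducts and 1315 to 1650 in TEBs. The sums were 784 to 922, 339 to 414 and 357 to 410 for 5 adipocyte miRNAs, and 579 to 691, 377 to 390 and 310.0 to 464 for 6 leukocyte miRNAs, in the same order. For 3 red cell miRNAs they were 2018 to 3622, 2617 to 3320 and 1385 to 1923, and for 4 skeletal muscle miRNAs 31.2 to 60.2, 56.1 to 179 and 17.1 to 89.5. None of the 1, 4, 3, 3 and 2 miRNAs tested in these 5 lists passed the test between TEBs and ducts, beside 24.6% of all tested. Their median log2 fold changes, TEB over duct, were -0.45, 0.22, 0.40, -0.81 and -1.24, in the same order. With so few miRNAs and arrays, the lack of calls does not show that they were unchanged. The endothelial and red cell sums were lower on every TEB array than on either duct array, as mmu-miR-200a was. In the other non-epithelial lists, the same held for the tested miRNAs mmu-miR-143, mmu-miR-10b, mmu-miR-127, mmu-miR-193, mmu-miR-365, mmu-miR-133a and mmu-miR-133b. Both mmu-miR-214 and mmu-miR-142-3p were higher on every TEB array than on either duct array. The part of any of these in the difference of mmu-miR-200a was not tested.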

How the data were processed

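The authors deposited, for each of 8 arrays, the total signal intensity of each miRNA from Agilent Feature Extraction 9.5.3 (per the labels), with its error and a detection flag, background-subtracted and not normalized between arrays. They also deposited a table of log2 values, whose normalization is not given in the sources used here. Of its ranks, 46.4% held identical values on all arrays (within 0.001), and it served as an alternative. Groups follow the region named in each label (3 TEB, 2 duct, 3 stroma). The 39 viral and 22 control rows were left out.

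Intensities were scaled at their 75th percentile, taken over miRNAs that no array missed, because most miRNAs were not detected and the percentile over all 611 fell among the weakest signals. A floor of 1 was set and log2 values entered limma (version 3.58.1, R 4.3.3, functions lmFit, contrasts.fit and eBayes) over 8 arrays and 167 miRNAs, at an adjusted p under 0.05. The fit was tested on simulated data that held no stromal values at the floor, so that test does not cover their effect. The number of arrays limits the precision. Stromal values at the floor have no spread and enter the shared variance, so fits to the 2 epithelial tissues are given beside. The miRNAs named were the members, their star strands, the marker lists and the 5 nearest profiles. The members were taken by name and not by signal, but both they and the lists were chosen with earlier results of these data known. Sequences are from RefSeq (GRCm38.p6). Alternatives were other scalings, 16 added in place of the floor, normexp (offset 50), other filters, the replicate block, the slide row, trend and robust estimation, the methods' t test and leaving out each array.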

Additional observations from a re-analysis of the deposited data

How the results depend on the processing

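Against stroma, all 10 member changes kept their direction and their side of the threshold in each of 210 alternative values. No member was detected in stroma and a difference was built into the filter, so this agreement supports nothing about the members. Between TEBs and ducts, mmu-miR-200a passed in 21 of 23 alternatives (-1.94 to -1.02), the exceptions being 16 added (-1.39) and, chosen after seeing the data, the 75th percentile over all mouse miRNAs in a fit to the 2 tissues (-1.02). Scaled over all mouse miRNAs, in either fit, mmu-miR-200b was at 0.41 and mmu-miR-429 at 0.19. Without scaling mmu-miR-200b was at -0.51 (limma adjusted p = 0.0322), mmu-miR-200c at -0.24 and mmu-miR-141 at -0.17. After quantile normalization mmu-miR-141 was at 0.35 (limma adjusted p = 0.0305) and in the authors' table at 0.34 (0.0393). Leaving out each array gave -0.35 to -0.12 for mmu-miR-200b, -1.88 to -1.51 for mmu-miR-200a, -0.52 to -0.36 for mmu-miR-429, -0.11 to 0.13 for mmu-miR-200c and 0.02 to 0.19 for mmu-miR-141. Without TEB replicate 1, mmu-miR-200b passed (-0.35, limma adjusted p = 0.0495), and mmu-miR-200c turned without it (-0.11) or without duct replicate 1 (-0.01). The causes were not tested.

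The 41 miRNAs called between TEBs and ducts became 75 without scaling, 27 with normexp, 18 with no detection filter and 12 by the methods' t test after Benjamini-Hochberg (53 at its own threshold). They became 10 without duct replicate 1, 70 without TEB replicate 1 and 5 without TEB replicate 2 (range 5 to 70). Members called were 2 after quantile normalization, without scaling and in the authors' table, 0 with 16 added, and 1 to 2 on leaving out arrays. Over all mouse miRNAs, calls fell from 108 to 66 for TEBs over stroma and from 36 to 19 for ducts over stroma, which gave 56 without scaling and 69 with normexp. Of the calls in TEBs over stroma, 31.5% were higher, against 57.6% scaled over all mouse miRNAs, 41.7% in the authors' table and 41 in each direction without scaling. In ducts over stroma 44.4% were higher, against 57.9% scaled over all mouse miRNAs and 92.9% without scaling.

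The cluster difference of -0.85 was -0.92 after quantile normalization, -0.77 with 16 added, -0.62 with normexp and -0.88 to -0.81 on leaving out arrays. The seed difference of 0.56 was 0.33 after quantile normalization and 0.34 with normexp. Without the 10 brightest other miRNAs in the denominator the family's share was 5.84% in ducts, 5.70% in TEBs and 0.00727% in stroma, and with negative signals in it 2.89% in TEBs. Arrays of different tissues share only a replicate number, with a mean correlation of their deviations of -0.104 over 7 same-number pairs against 0.0518 over 14 others. In the fit that blocked on replicate number (replicate block), 16 miRNAs were called between TEBs and ducts, mmu-miR-200a was at -1.55 (limma adjusted p = 0.00461), mmu-miR-429 at -0.67 (0.413), and no member's call changed. Requiring detection on all 8 arrays leaves no member to test.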
